A study of Mus musculus with 2 samples.

Results

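The 9 genes described here carry retinoic acid signalling in the testis: Aldh1a1 and Aldh1a2, which make retinoic acid, Crabp1 and Crabp2, which bind it in the cytoplasm, the nuclear receptors Rara, Rarb and Rarg, the degrading enzyme Cyp26b1, and the germ cell target Stra8. They were chosen by symbol, and all 9 have a row among the 31053 genes of both matrices. Retinoic acid is made from vitamin A by oxidation of retinol to retinal and of retinal to the acid. It binds nuclear receptors that sit on DNA with a retinoid X receptor partner. In the mouse testis, its pulses along the seminiferous tubule start spermatogonial differentiation and meiosis, and Stra8 is the best known gene switched on by it.

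Testes of 8-month-old mice were profiled by 10x Genomics single-cell RNA sequencing as 1 Igf2bp1 KO library and 1 Wild type library. Igf2bp1 encodes an RNA-binding protein, and the series text calls the mutant a conditional knockout and names 2 mice, so the number of animals behind each library is not certain. The sources used here name neither the Cre line nor the deleted exons or any further allele. With 1 library per genotype there is no replicate check, and no p-value is given for any difference.

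The KO library had 17968 barcodes and 98033324 UMIs, and the Wild type library had 17362 barcodes and 121257944 UMIs, where a UMI is 1 counted RNA molecule. Cells were clustered without the 9 genes, and clusters were named by their resemblance to 17 sets of marker genes, so that spermatogonia below means spermatogonia-like cells and likewise for the other names. The libraries stood apart in quality: 29.8% of kept barcodes in KO and 1.73% in Wild type fell in clusters called mixed. A further 44.9% in KO and 64.2% in Wild type resembled empty droplets. A cluster was called mixed when somatic markers came with spermatid protamine UMIs, its leading genes stood out too little, or markers of another class led. Of the 294 mixed Wild type barcodes, 263 lay in a cluster closest to elongating spermatids whose leading genes stood out too little. Named cells were 4435 in KO and 5589 in Wild type, and the libraries shared 106 barcode sequences. KO had 105 spermatogonia, 457 late spermatocytes, 338 round spermatids, 1321 elongating spermatids and 1053 Sertoli cells, the nurse cells of the tubule. Wild type had 162 spermatogonia, 1466 late spermatocytes, 806 round spermatids, 2297 elongating spermatids and 658 Sertoli cells. In KO and Wild type spermatogonia all 13 spermatogonial markers were detected, and of the 13 Sertoli markers all were detected in KO Sertoli cells and 12 in Wild type Sertoli cells, where Fshr was at 0. These 5 classes held at least 50 cells in each library and were compared. Leydig cells, the steroid-producing cells between the tubules, numbered 379 in KO and only 45 in Wild type, so their values are given without a comparison.

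A level is the gene's counts per 1e6 UMIs of all cells of a class (CPM), with a 95% Poisson interval, and a ratio is KO over Wild type on the log2 scale with an exact interval. All intervals cover counting error only and not the difference between animals. A gene counted as measured in a class with at least 20 UMIs over both libraries, and as higher or lower when its level differed by at least 1.5-fold and the interval left out equality. RNA released from broken cells can be counted in every droplet, and its level, called free RNA below, was approximated in each library by the decile of kept barcodes with the fewest UMIs. Igf2bp1 itself stood at 21.9 CPM from 18 UMIs in KO spermatogonia and 50.4 CPM from 91 UMIs in Wild type spermatogonia, a log2 ratio of -1.20 (-2.02 to -0.46). Since the deleted part is unknown, a count at the 3' end of the transcript checks the genotype only in part.

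The promoters of the receptor gene Rarb and of the target Stra8 are printed because both genes are textbook targets of retinoic acid receptors. The windows reach from 250 bases before to 50 bases after the transcription start, from RefSeq on GRCm38.p6, and capitals mark receptor half-sites on the gene's strand. The words searched on both strands were AGGTCA together with AGTTCA, and GGGTCA together with GGTTCA. Rarb lies on chromosome 14 on the minus strand, window chr14:16575427-16575726, and Stra8 on chromosome 6 on the plus strand, window chr6:34920698-34920997.
Rarb: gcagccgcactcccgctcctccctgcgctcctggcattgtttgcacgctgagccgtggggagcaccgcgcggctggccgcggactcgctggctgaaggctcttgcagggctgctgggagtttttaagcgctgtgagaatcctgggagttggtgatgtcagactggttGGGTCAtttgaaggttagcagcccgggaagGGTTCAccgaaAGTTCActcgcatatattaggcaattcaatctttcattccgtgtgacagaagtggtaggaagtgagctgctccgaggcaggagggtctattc
Stra8: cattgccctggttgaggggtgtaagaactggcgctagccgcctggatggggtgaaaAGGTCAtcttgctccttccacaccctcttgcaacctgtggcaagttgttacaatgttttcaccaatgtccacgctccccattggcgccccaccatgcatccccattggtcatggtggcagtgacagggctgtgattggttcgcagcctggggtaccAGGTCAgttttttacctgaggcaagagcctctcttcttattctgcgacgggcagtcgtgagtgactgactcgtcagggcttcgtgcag
In the Rarb window the words start 83, 53 and 42 bases before the start site, and GGTTCA and AGTTCA form a direct repeat with a spacer of 5 bases. Such a repeat was found in 0.0974% of the 32851 promoter windows searched. In the Stra8 window AGGTCA occurs at 194 and at 38 bases before the start, with no direct repeat, and 13.1% of all windows hold at least 2 half-sites. Windows were found for 8 of the 9 genes, 13 windows in all, and 6 of them, belonging to 5 genes, held a half-site, against 43.7% of all windows. The windows of Aldh1a2, Crabp1 and Cyp26b1 hold none of these letters. A match is a run of letters and was not tested for binding.

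The clearest difference between the libraries concerned Aldh1a1, a retinaldehyde dehydrogenase located at chr19:20492715-20643465 on the plus strand (GENCODE, GRCm38). Its highest levels were in the interstitium. In Leydig cells it stood at 2051 CPM (1993 to 2109) in KO, with UMIs in 379 of 379 cells, and at 2481 CPM in Wild type, with UMIs in 44 of 45 cells. Interstitial mesenchymal cells followed with 282 CPM in 56 KO cells and 588 CPM in 17 Wild type cells, too few to be ranked there. Among classes with at least 50 cells in the library, Sertoli cells came next, with 84.6 CPM (74.3 to 95.9) in KO and 83.1 CPM (66.9 to 102) in Wild type. The intervals of these 3 classes were apart within the KO library. The 14 KO peritubular myoid cells, at 144 CPM from 5 UMIs, were not ranked. Aldh1a7, a close paralog whose reads may be split with Aldh1a1 by the counting, stood at 105 CPM in KO Leydig cells.

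Aldh1a1 was higher in KO in all 4 germ cell classes compared, though the call in spermatogonia rests on 20 UMIs in all. With a stricter barcode filter, thinned cells, cells named one by one from markers or without 1 sub-cluster of unequal depth, fewer UMIs than that were left and spermatogonia gave no call, nor did they with a minimum of 50 UMIs. Thinning likewise left round spermatids with too few UMIs for a call. In spermatogonia it had 18 UMIs and 21.9 CPM (13.0 to 34.7) in KO, against 2 UMIs and 1.11 CPM (0.134 to 4.00) in Wild type, a log2 ratio of 4.31 (2.25 to 7.46). Among all 10511 genes measured in spermatogonia, 12.2% were past the limit in either direction, 4.76% higher and 7.45% lower in KO, while of the 6 measured members 1 was higher and 0 were lower. In late spermatocytes Aldh1a1 stood at 11.1 CPM in KO and 1.05 CPM in Wild type, with a log2 ratio of 3.41 (2.85 to 4.00). Here 7.92% of all genes were past the limit, with 5.84% higher and 2.09% lower in KO, and 1 of the 4 measured members was. Round spermatids had 8.63 CPM in KO and 0.836 CPM in Wild type, a log2 ratio of 3.37 (2.62 to 4.18), where 7.75% of all genes and 1 of 3 measured members were called, with 4.46% of all genes higher and 3.29% lower. Elongating spermatids had 10.6 CPM in KO and 0.949 CPM in Wild type, a log2 ratio of 3.48 (2.92 to 4.08), where 15.6% of all genes and 1 of 5 measured members were called, with 15.0% of all genes higher and 0.610% lower. The 4 ratios ran from 3.37 to 4.31 with overlapping intervals, and the KO and Wild type levels did not overlap within counting error in any of the 4 classes.

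Free RNA differed between the libraries in the same direction. Aldh1a1 stood at 51.8 CPM (42.9 to 61.9) in the lowest decile of KO barcodes and at 7.30 CPM (3.77 to 12.7) in that of Wild type, a log2 ratio of 2.83 (1.97 to 3.82). Its level in each of the 4 germ cell classes of the KO library lay below that library's free RNA. A UMI of Aldh1a1 was found in 15 of 105 KO spermatogonia (14.3%) and in 2 of 162 Wild type spermatogonia (1.23%), against 115 of 1770 barcodes of the lowest decile in KO and 12 of 1700 (0.706%) in Wild type, which are shallower. The median spermatogonium held 6582 UMIs in KO and 8226 in Wild type, and the median barcode of the lowest decile 1301 in KO and 967.5 in Wild type. Thinned to 1000 UMIs per cell, 0 of 105 KO and 2 of 162 Wild type spermatogonia held a UMI, too few to compare. With the mean profile of the lowest decile taken off once per cell, the ratios were 4.73, 3.31, 3.24 and 3.25 in spermatogonia, late spermatocytes, round spermatids and elongating spermatids. This removed 6.20% to 16.5% of all UMIs of these classes in KO and 3.25% to 8.62% in Wild type, and left 11 Aldh1a1 UMIs in KO and 1 in Wild type spermatogonia. A larger share of free RNA in these cells was not tested. Sub-cluster 12.4 of the spermatogonia was of unequal depth, with a median of 4714 UMIs in 15 KO cells and 28806 UMIs in 27 Wild type cells, and without it the spermatogonial ratio was 3.43 (1.31 to 6.61), with fewer than 20 UMIs behind it.

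Markers of several somatic cell types, the 9 Leydig cell markers among them, moved with Aldh1a1. Their summed level in KO was 302 CPM in spermatogonia, 160 CPM in late spermatocytes, 132 CPM in round spermatids and 157 CPM in elongating spermatids. In Wild type it was 34.3 CPM in spermatogonia, 21.6 CPM in late spermatocytes, 12.3 CPM in round spermatids and 11.6 CPM in elongating spermatids. The sum in free RNA was 730 CPM in KO and 120 CPM in Wild type. All measured Leydig markers were higher in KO in these classes, 3 of 3, 8 of 8, 7 of 7 and 8 of 8. Of the 9, Lhcgr, the luteinizing hormone receptor gene, was at 0 in KO late spermatocytes and in all 4 Wild type classes, with Cyp11a1 also at 0 in Wild type spermatogonia. For the 4 classes in the same order, the log2 ratios of KO over Wild type for the summed B lymphocyte markers were 3.84, 3.89, 4.31 and 4.00, for the macrophage markers 4.06, 3.55, 2.16 and 0.47, and for the 13 Sertoli markers 1.47, 1.43, 1.45 and 1.28. Interstitial mesenchymal markers ran from 0.96 to 2.33. Other lists moved less or the other way: endothelial markers ran from -0.20 to 0.29 and T or NK lymphocyte markers from 0.00 to 0.30. Peritubular myoid markers ran from -0.22 to 0.53, and rete or duct epithelium markers from -0.75 to -0.16. Beyond the subtraction given above, the part of somatic RNA in the Aldh1a1 values was not tested.

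**Figure D1:**
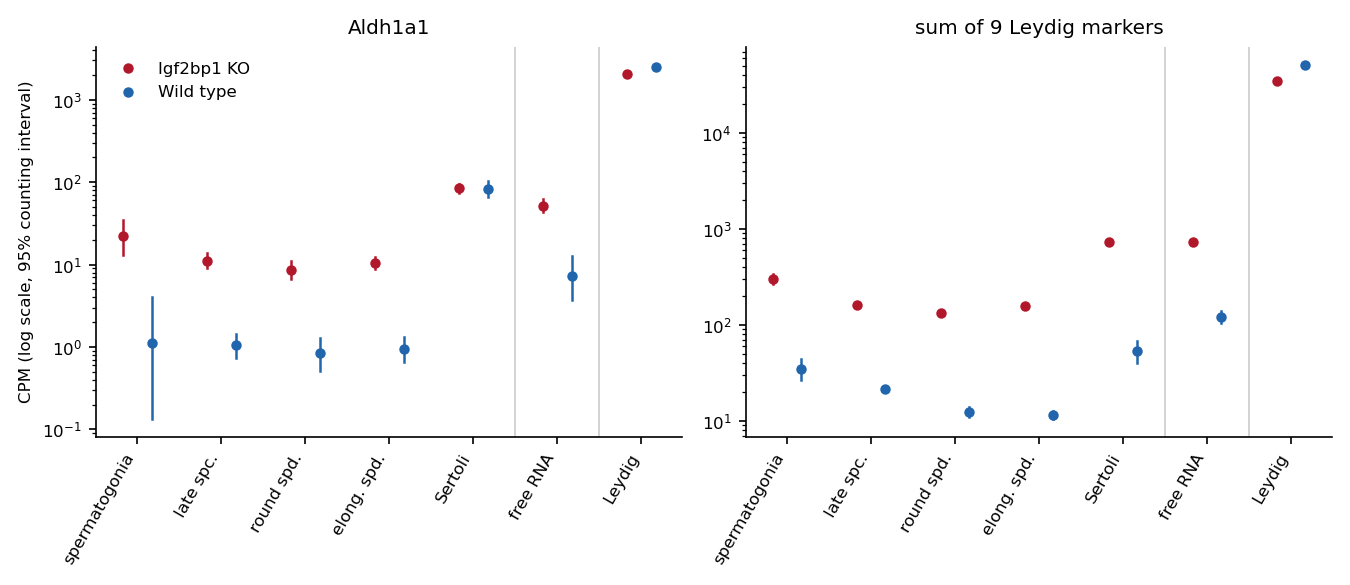
Aldh1a1 and the sum of 9 Leydig cell markers in CPM (vertical axes, logarithmic, 95% counting intervals) in the 5 compared classes, in free RNA and in Leydig cells, for Igf2bp1 KO and Wild type. Germ cell levels of Aldh1a1 lie between 8.63 and 21.9 CPM in KO, against 0.836 to 1.11 CPM in Wild type, and the KO values lie below the KO free RNA level of 51.8 CPM.

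In Sertoli cells Aldh1a1 was not past the limit, with 245 UMIs in KO, 91 UMIs in Wild type and a log2 ratio of 0.03. Subtracting free RNA in the same way gave -0.71 (-1.09 to -0.32), lower in KO, but took off 47.2% of the UMIs of this shallow class in KO and 57.7% in Wild type. The Leydig marker sum in Sertoli cells was 737 CPM in KO and 53.0 CPM in Wild type, and the 13 Sertoli markers summed to 7876 CPM in KO and 12478 CPM in Wild type.

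Aldh1a2, the second synthesis enzyme (chr9:71215789-71296243, plus strand), followed germ cell stage instead and passed the limit in none of the 5 classes. It was highest in late spermatocytes, with 93.9 CPM (87.4 to 101) and 776 UMIs in KO and 98.1 CPM (94.9 to 101) and 3559 UMIs in Wild type, a log2 ratio of -0.06 (-0.18 to 0.05). Round spermatids held 47.4 CPM in KO and 52.1 CPM in Wild type. Spermatogonia held 34.1 CPM in KO and 38.8 CPM in Wild type, and early spermatocytes 70.1 CPM in 34 KO cells and 63.3 CPM in 82 Wild type cells. Elongating spermatids were lowest among the classes compared, with 7.66 CPM in KO and 5.75 CPM in Wild type. Among classes with at least 50 cells in the library, the interval of late spermatocytes lay above that of the next class in both libraries. The 34 KO early spermatocytes, at 37.3 to 120 CPM, were not ranked and overlapped late spermatocytes. With cells named one by one from markers, early spermatocytes were highest in Wild type. The interval of elongating spermatids lay below those of all other compared classes in both libraries. Spermatogonia and Sertoli cells, at 33.8 CPM in KO and 29.2 CPM in Wild type, overlapped free RNA, at 40.5 CPM in KO and 35.3 CPM in Wild type, and each other.

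Within the libraries, Aldh1a2 was thus above free RNA in late spermatocytes in both genotypes and in round spermatids in Wild type. The share of late spermatocytes with a UMI was 59.1% in KO and 78.2% in Wild type, at median depths of 14562 UMIs in KO and 19384 in Wild type, against 5.14% of the lowest decile in KO and 3.29% in Wild type. Thinned to 1000 UMIs per cell, the shares were 6.35% in KO and 9.22% in Wild type, and the log2 ratio was -0.59 (-1.22 to -0.01), past the limit. In elongating spermatids the ratio was 0.41 (0.06 to 0.76), short of the limit. There the median of all genes was 0.23, and scaling by trimmed means or by median of ratios shifted every ratio by -0.26 or -0.27, after which Aldh1a2 stood at 0.15 or 0.14.

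Crabp1, a cytoplasmic retinoic acid binding protein (chr9:54764748-54773110, plus strand), marked spermatogonia. It had 246 UMIs and 300 CPM (264 to 340) in KO spermatogonia, and 450 UMIs and 249 CPM (227 to 273) in Wild type spermatogonia, a log2 ratio of 0.27 (0.04 to 0.49) that is under the limit. The ratio was -0.03 without the sub-cluster of unequal depth. A Crabp1 UMI was present in 75 of 105 KO spermatogonia (71.4%, Clopper-Pearson 61.8 to 79.8) and in 104 of 162 Wild type spermatogonia (64.2%, 56.3 to 71.6). Thinned to 1000 UMIs, the shares were 23.8% in KO and 24.1% in Wild type. In early spermatocytes the level was 10.8 CPM from 2 UMIs in KO and 20.5 CPM from 12 UMIs in Wild type, and late spermatocytes, round spermatids and elongating spermatids held less than 1 CPM in each library.

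Crabp1 was also the one member whose Sertoli cell level was higher in KO. It had 30 UMIs in 24 of 1053 KO Sertoli cells, 10.4 CPM (6.99 to 14.8), and 0 UMIs in 658 Wild type Sertoli cells. For the Wild type share of cells with a UMI, 3 counts set a limit of 0.456%, and the Clopper-Pearson interval reaches 0.559%. At a median of 1342 UMIs per Wild type Sertoli cell, this does not limit the share of cells that express the gene. The KO level was 3.78 times the floor of 3 UMIs in the Wild type class, and the counting interval of the log2 ratio begins at 1.53. Of all genes measured in Sertoli cells, 8.97% were past the limit, 4.70% higher and 4.27% lower in KO, and of the 4 measured members 1 was higher and 1 lower. Free RNA held 2.18 CPM of Crabp1 in KO, in 0.282% of barcodes, and 3.04 CPM in Wild type, in 0.176%. The 13 spermatogonial markers summed to 146 CPM in KO Sertoli cells and 160 CPM in Wild type Sertoli cells, and 0 of the 5 measured there passed the limit in either direction. Thinned to 1000 UMIs, 6 of 1053 KO and 0 of 637 Wild type Sertoli cells held a UMI, and the call was lost. With 30 UMIs in all, it was also lost with a minimum of 50 UMIs. The Sertoli class included a cluster of 19 KO and 0 Wild type cells, with a median of 5162 UMIs. The part of this cluster in the Crabp1 value was not tested.

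Crabp2, the second binding protein (chr3:87948666-87953376, plus strand), was barely detected. It had 4 UMIs over all named cells in KO and 7 in Wild type, and was measured in none of the 5 classes. No promoter window was matched for it.

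Of the receptors, Rara (chr11:98927818-98974942, plus strand), the main retinoic acid receptor of Sertoli cells in mice, was the best detected. In Sertoli cells it was lower in KO, with 28 UMIs and 9.67 CPM (6.42 to 14.0), against 22 UMIs and 20.1 CPM (12.6 to 30.4) in Wild type, a log2 ratio of -1.06 (-1.91 to -0.18). A UMI was seen in 25 of 1053 KO and 19 of 658 Wild type Sertoli cells, and free RNA held Rara at 6.53 CPM in KO and 4.86 CPM in Wild type, so that the KO level overlapped its free RNA and the Wild type level lay above it. The call was lost with a stricter barcode filter, at -0.50, and with cells named one by one from markers, at -0.74. Thinning gave -1.95 and subtraction of free RNA -1.72. The Sertoli markers in the same cells were also lower in KO in 4 of 12 measured genes and higher in 0.

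In spermatogonia Rara pointed the other way without passing the limit, at 25.6 CPM (15.8 to 39.1) from 21 UMIs in KO and 14.4 CPM (9.41 to 21.1) from 26 UMIs in Wild type. The log2 ratio of 0.83 ran from -0.07 to 1.72. Thinning gave -0.11, and subtraction of free RNA gave 0.95 (0.02 to 1.85), past the limit. In later germ cells Rara lay below free RNA or overlapped it, with 1.94 CPM in KO and 2.98 CPM in Wild type late spermatocytes, 2.97 CPM in KO and 3.34 CPM in Wild type round spermatids, and 2.29 CPM in KO and 2.94 CPM in Wild type elongating spermatids. The elongating ratio of -0.36 was not past the limit, but became -0.62 or -0.63, lower in KO, under the 2 other scalings, and the late spermatocyte ratio of -0.62 became -0.89 with free RNA subtracted, also lower. Leydig cells held 18.3 CPM in KO and 19.4 CPM in Wild type.

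Rarb (chr14:16430839-16819156, minus strand) had 13 UMIs over all named cells in KO and 33 in Wild type. It was measured only in elongating spermatids, at 0.716 CPM in KO and 0.741 CPM in Wild type, a log2 ratio of -0.05 (-1.27 to 1.06). Rarg (chr15:102234938-102257517, minus strand), the receptor of mouse spermatogonia, was measured only in spermatogonia among the 5 classes, at 8.53 CPM from 7 UMIs in KO and 7.20 CPM from 13 UMIs in Wild type. Its log2 ratio of 0.25 had an interval of -1.32 to 1.68, and a difference was not detectable at this depth.

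Cyp26b1 (chr6:84571414-84593908, minus strand) encodes a cytochrome P450 that breaks retinoic acid down and shields fetal male germ cells from it. Among KO classes with at least 50 cells, it had its highest level in interstitial mesenchymal cells. These cells held 35 of its 583 UMIs in kept KO barcodes and 8 of 71 in Wild type. There it stood at 240 CPM (167 to 334) in KO, with UMIs in 15 of 56 cells, and at 247 CPM (107 to 488) in Wild type, with UMIs in 4 of 17 cells. These levels lie far above free RNA, at 3.05 CPM in KO and 3.65 CPM in Wild type. Wild type Leydig cells showed 35.6 CPM from 11 UMIs, of which 81.8% came from 1 cell, while KO Leydig cells showed 2.98 CPM from 7 UMIs. Spermatogonia had 2 UMIs in KO and 15 in Wild type, and Sertoli cells 16 in KO and 1 in Wild type. Cyp26b1 was not measured in any of the 5 compared classes, and no direction is read from these counts.

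**Figure D2:**
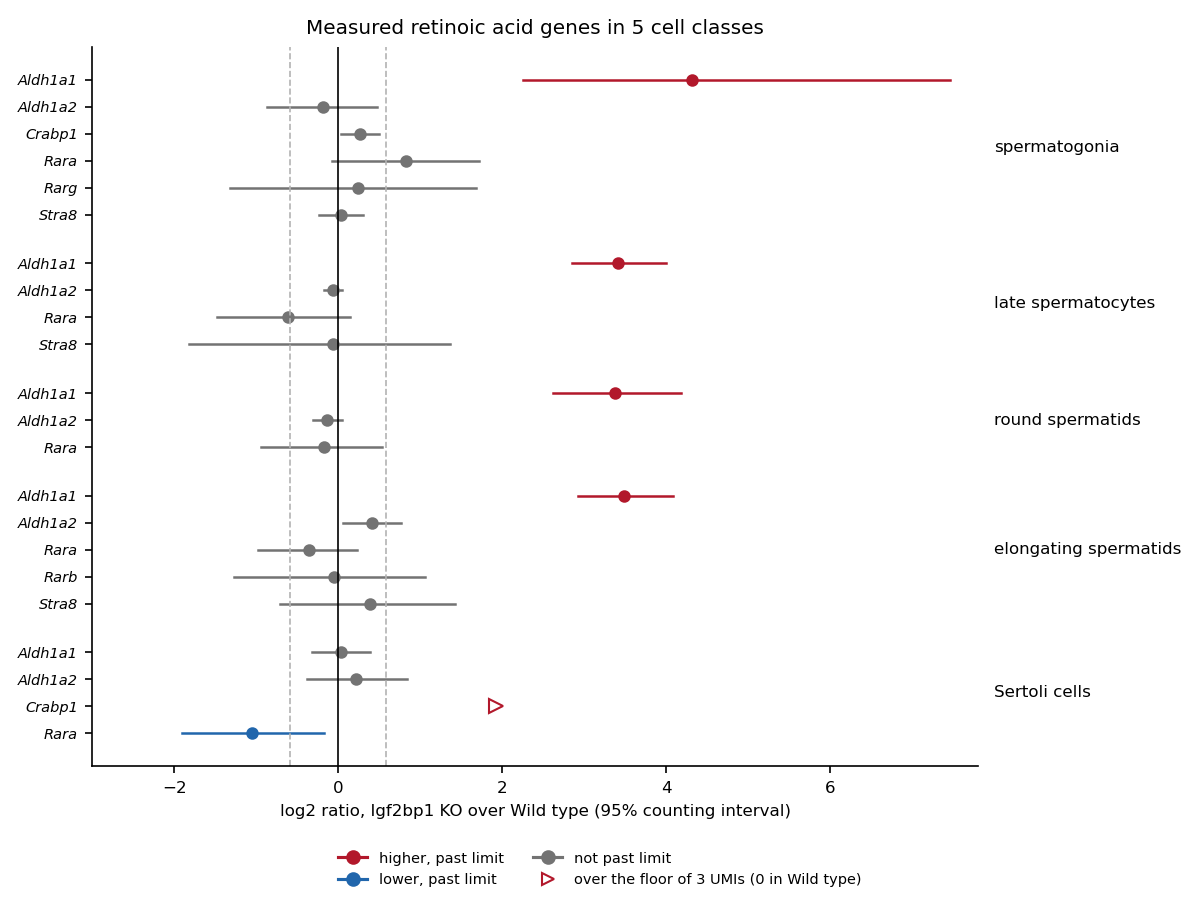
Log2 ratio of KO over Wild type (horizontal axis, 95% counting interval) for each measured gene in the 5 compared classes. Aldh1a1 lies between 3.37 and 4.31 in the 4 germ cell classes and at 0.03 in Sertoli cells, Crabp1 in KO Sertoli cells is 3.78 times the Wild type floor (open triangle at a log2 of 1.92), Rara is lower there at -1.06, and the other points did not pass the limit.

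Stra8 (chr6:34920163-34939344, plus strand), needed for germ cells to enter meiosis, was found in spermatogonia and the first meiotic cells of both libraries. Spermatogonia had 174 UMIs and 212 CPM (182 to 246) in KO and 374 UMIs and 207 CPM (187 to 229) in Wild type, a log2 ratio of 0.03 (-0.23 to 0.30). A Stra8 UMI was found in 52 of 105 KO spermatogonia (49.5%, 39.6 to 59.5) and 72 of 162 Wild type spermatogonia (44.4%, 36.6 to 52.4), and, thinned to 1000 UMIs, in 22 of 105 in KO and 26 of 162 in Wild type. Free RNA held 5.22 CPM in KO, in 0.678% of barcodes, and 4.26 CPM in Wild type, in 0.412%. The ratio moved to -0.27 without the sub-cluster of unequal depth and to 0.38 after thinning, and passed the limit in neither case. In late spermatocytes the levels were 0.605 CPM in KO and 0.634 CPM in Wild type, in round spermatids 1.13 CPM in KO and 0.418 CPM in Wild type, and in elongating spermatids 0.931 CPM in KO and 0.712 CPM in Wild type, all under the free RNA level. Sertoli cells held 2.76 CPM from 8 UMIs in KO and 5.48 CPM from 6 UMIs in Wild type.

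Early spermatocytes, with 34 cells in KO and 82 in Wild type, had too few KO cells to be compared. Stra8 stood at 636 CPM (526 to 762) there in KO, with UMIs in 26 of 34 cells (76.5%), and at 532 CPM in Wild type, with UMIs in 40 of 82 cells (48.8%). Thinned to 1000 UMIs, a UMI was left in 17 of 34 KO cells and 24 of 82 Wild type cells. The class held 2 sub-clusters in unequal proportion. The sub-cluster 12.0, led by Stra8 itself, the histone genes Hist1h1a and Hist1h2ap and Prss50, had 32 KO and 48 Wild type cells. There Stra8 stood at 716 CPM (593 to 857) in KO and 1066 CPM (951 to 1192) in Wild type, a log2 ratio of -0.57 (-0.89 to -0.26). Without the cell with most Stra8 UMIs in each library the levels were 680 CPM in KO and 953 CPM in Wild type. The sub-cluster 12.5, led by Rad51ap2, Mov10l1 and the synaptonemal complex gene Sycp1, had 2 KO and 34 Wild type cells and 0 Stra8 UMIs in either library. The KO level thus exceeded the Wild type level over the class and lay under it within the Stra8-bearing sub-cluster, and neither is counted as a call.

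Many spermatogonia held UMIs of both Stra8 and Crabp1, while few early spermatocytes held Crabp1. UMIs of both genes were found in 38 of 105 KO and 49 of 162 Wild type spermatogonia, of Stra8 alone in 14 KO and 23 Wild type, of Crabp1 alone in 37 KO and 55 Wild type, and of neither in 16 KO and 35 Wild type. In early spermatocytes both were found in 2 KO and 9 Wild type cells, and Stra8 alone in 24 KO and 31 Wild type cells. Crabp1 alone was found there in 0 KO and 1 Wild type cells, and neither gene in 8 KO and 41 Wild type cells. Whether the 2 genes met more often than independent detection would give was not tested. For Stra8, sub-cluster 12.3 had 83 UMIs in KO and 149 in Wild type, and sub-cluster 12.2 had 33 in KO and 73 in Wild type. Whether their order for Stra8 goes beyond counting error was not tested. Among the spermatogonial sub-clusters, 12.3, whose leading genes include P3h3, Crabp1, Stra8 and Uchl1, had the highest value for both genes. It held Crabp1 at 686 CPM in KO and 573 CPM in Wild type and Stra8 at 527 CPM in KO and 429 CPM in Wild type. Sub-cluster 12.1 held Crabp1 at 300 CPM in KO and 375 CPM in Wild type but Stra8 at only 70.9 CPM in KO and 61.3 CPM in Wild type, and sub-cluster 12.2 the reverse, with Crabp1 at 145 CPM in KO and 79.0 CPM in Wild type and Stra8 at 299 CPM in KO and 361 CPM in Wild type. The order of sub-clusters is a description, since their boundaries were drawn from the same cells.

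**Figure D3:**
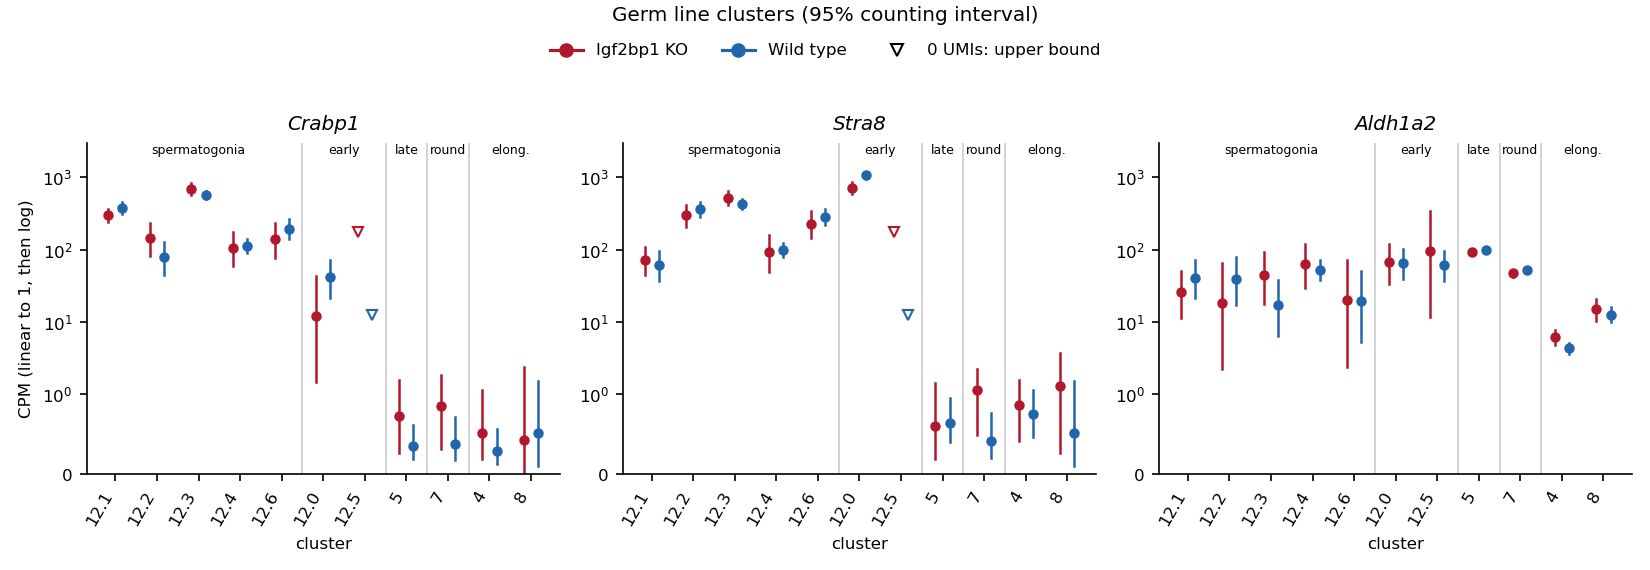
Levels of Crabp1, Stra8 and Aldh1a2 in CPM (vertical axes, linear to 1 and logarithmic above, 95% counting intervals) in 11 germ line clusters (horizontal axis, cluster number, grouped by class), for Igf2bp1 KO and Wild type. Open triangles are upper bounds where no UMI was counted. Stra8 reaches 716 CPM in KO and 1066 CPM in Wild type in sub-cluster 12.0, and Crabp1 reaches 686 CPM in KO and 573 CPM in Wild type in sub-cluster 12.3.

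Over the measured members, the median log2 ratio was 0.26 for 6 genes in spermatogonia, -0.07 for 4 in late spermatocytes, -0.14 for 3 in round spermatids, 0.39 for 5 in elongating spermatids and 0.12 for 4 in Sertoli cells. The medians of all genes measured in these classes were 0.00, 0.04, 0.03, 0.23 and 0.06 in the same order.

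The wider pathway was followed with 44 further genes in 6 lists: vitamin A uptake and storage, retinol and retinal oxidation, other synthesis enzymes, carriage and breakdown, nuclear receptors with cofactors, and genes that act with retinoic acid in germ cells. In spermatogonia 24 were measured, 2 were higher and 2 lower in KO, with a median log2 ratio of 0.02, where 4.76% of all genes were higher and 7.45% lower. Both lower genes encode enzymes that interconvert retinol and retinal: Rdh11 stood at 57.3 CPM in KO and 89.2 CPM in Wild type, a log2 ratio of -0.64 (-1.14 to -0.16), and Dhrs4 at 14.6 CPM in KO and 29.4 CPM in Wild type, a log2 ratio of -1.01 (-2.05 to -0.08). Both had their highest level in late spermatocytes in both libraries. In spermatogonia the values of both were smaller than that of free RNA in their library. The Wild type interval of Dhrs4, 22.0 to 38.4 CPM, included the free RNA value. Free RNA held Rdh11 at 120 CPM in KO and 123 CPM in Wild type, and Dhrs4 at 31.3 CPM in KO and 35.9 CPM in Wild type. The late spermatocyte markers in these spermatogonia summed to 1116 CPM in KO and 1793 CPM in Wild type, with 5 of 10 lower and 0 higher, and their part in both values was not tested. The higher genes were Nrip1, a nuclear receptor corepressor, and Sohlh2, a transcription factor of differentiating spermatogonia. Nrip1 stood at 23.2 CPM in KO and 11.6 CPM in Wild type, a log2 ratio of 0.99 (0.02 to 1.96). Its call was lost under scaling by trimmed means or by median of ratios. Sohlh2 stood at 24.4 CPM in KO and 11.6 CPM in Wild type. Rbp4, the retinol carrier, at 102 CPM in KO and 73.1 CPM in Wild type, Kit, the receptor that marks differentiating spermatogonia, at 57.3 CPM in KO and 71.4 CPM in Wild type, and Dazl, at 463 CPM in KO and 464 CPM in Wild type, did not pass the limit. Kit, Sall4, Sohlh1, Sohlh2 and Dmrt1 were also among the markers used to name spermatogonia. The count of 4 calls in spermatogonia was 2 without the sub-cluster of unequal depth.

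In later germ cells the calls were higher in KO, 5 of 26 measured genes in late spermatocytes, 4 of 24 in round spermatids and 8 of 27 in elongating spermatids, with 0 lower and medians of 0.14, 0.11 and 0.25. Of all genes 5.84%, 4.46% and 15.0% were higher in these classes and 2.09%, 3.29% and 0.610% lower, so that in elongating spermatids calls lay almost all on the higher side for all genes too. Among them Adh5, an alcohol dehydrogenase, Fabp5, a fatty acid binding protein that also carries retinoic acid, and Nrip1 were higher in all 3. In elongating spermatids the log2 ratio of Nrip1 was 0.78 (0.08 to 1.47), and this call depended on the scaling. In late spermatocytes Fabp5 stood at 2.18 CPM in KO and 0.441 CPM in Wild type, a log2 ratio of 2.30. In the KO library Adh5 and Fabp5 peaked in Leydig cells, Adh5 at 132 CPM and Fabp5 at 143 CPM. Free RNA held Adh5 at 6.96 CPM in KO and 4.26 CPM in Wild type, and Fabp5 at 11.7 CPM in KO and 2.43 CPM in Wild type. Kit, at 109 CPM in KO Leydig cells, was higher in late spermatocytes and elongating spermatids. Elongating spermatids also had higher Rec8, a meiotic cohesin subunit, at 12.7 CPM in KO and 7.23 CPM in Wild type. So were the coactivators Ncoa2, at 6.16 CPM in KO and 3.23 CPM in Wild type, and Ncoa3. The values of all 3 genes were smaller there than those of free RNA, for which no counting intervals are given. Free RNA held Rec8 at 48.3 CPM in KO and 31.0 CPM in Wild type. It held Ncoa2 at 9.14 CPM in KO and 11.6 CPM in Wild type, and Ncoa3 at 3.48 CPM in KO and 5.47 CPM in Wild type. The count of 8 calls was 6 under each of the 2 other scalings, and these were not all among the 8. Nrip1, Rec8, Kit and Ncoa3 were then no longer called. Rxrb, a retinoid X receptor gene, and Sohlh1 were then called lower in KO. Leydig markers were higher in these classes, as given for Aldh1a1, and their part in these values was not tested gene by gene.

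In Sertoli cells 22 pathway genes were measured, 3 were higher, 0 were lower, and the median was 0.49, where 4.70% of all genes were higher and 4.27% lower. Among the higher genes Nrip1 stood at 12.8 CPM in KO and 4.57 CPM in Wild type, and Rec8 at 45.9 CPM in KO and 29.2 CPM in Wild type. Free RNA held Rec8 at 48.3 CPM in KO and 31.0 CPM in Wild type, inside the counting intervals of both Sertoli levels. It held Nrip1 at 2.18 CPM in KO and 2.43 CPM in Wild type. The part of free RNA in these Sertoli values was not tested. Several genes of vitamin A turnover had their highest level in germ cells of both libraries. Lrat, which stores retinol as ester, peaked in round spermatids at 33.9 CPM in KO and 30.5 CPM in Wild type. Rdh10, which makes retinal, peaked in elongating spermatids at 19.2 CPM in KO and 18.7 CPM in Wild type, and Rdh11 in late spermatocytes at 198 CPM in KO and 211 CPM in Wild type. Stra6, a retinol uptake receptor, was highest in Sertoli cells in both, at 3.11 CPM from 9 UMIs in KO and 3.65 CPM from 4 UMIs in Wild type. The other Cyp26 genes were almost undetected: Cyp26a1 had 3 UMIs in KO Sertoli cells and 2 in Wild type Sertoli cells, and Cyp26c1 had 1 UMI in KO spermatogonia. Gm4969, the partner of Stra8 also known as Meiosin, stood at 59.3 CPM from 11 UMIs in KO early spermatocytes and 35.9 CPM from 21 UMIs in Wild type early spermatocytes, with no comparison made.

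**Figure D4:**
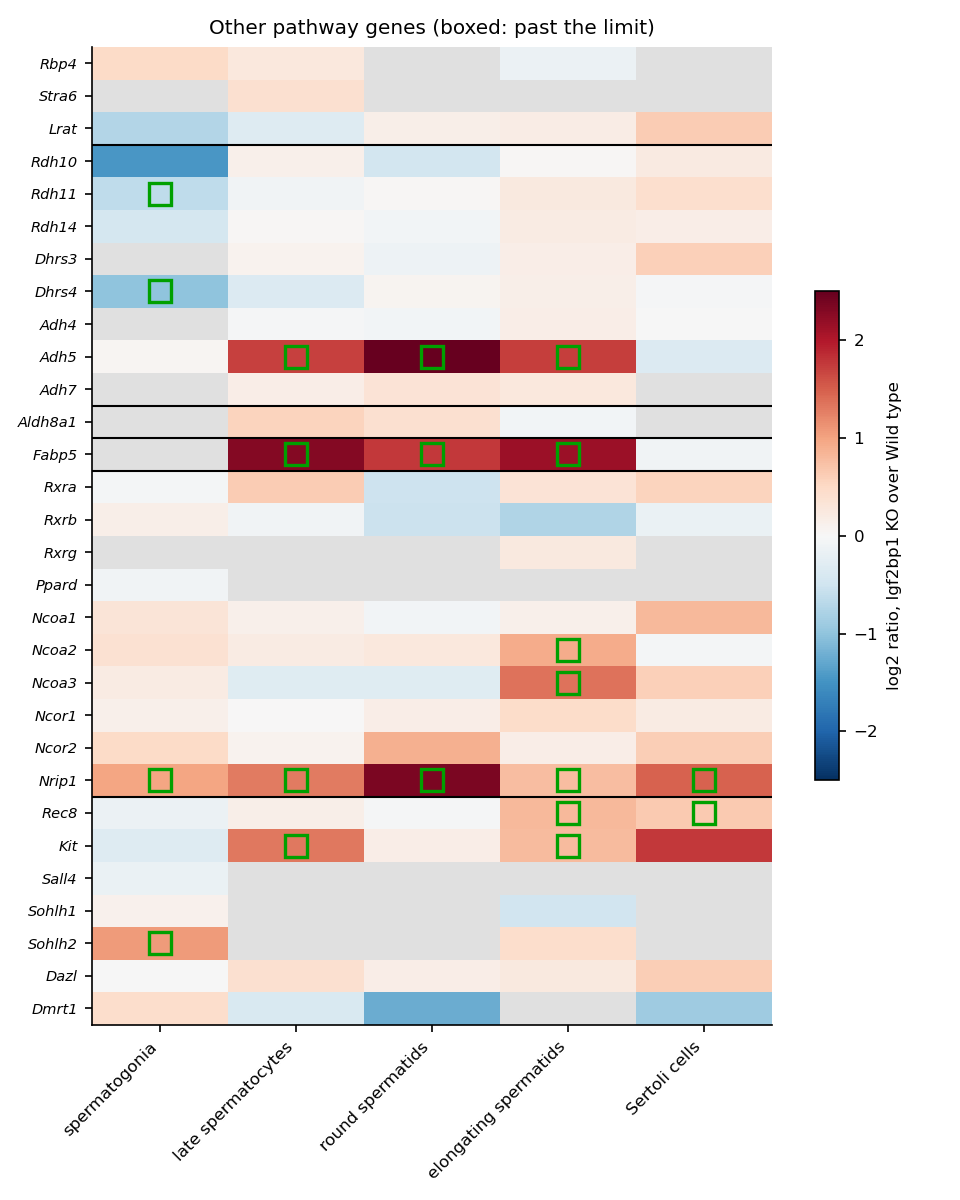
Log2 ratio of KO over Wild type (colour, axis limit 2.5) for 30 other pathway genes measured in at least 1 of the 5 compared classes; boxes mark ratios past the limit. Adh5, Fabp5 and Nrip1 are boxed in all 3 later germ cell classes, and Rdh11 and Dhrs4 are the genes boxed as lower, both in spermatogonia. The Nrip1 calls in spermatogonia and elongating spermatids were lost under scaling by trimmed means or by median of ratios.

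The genes whose levels ran most like those of each member over the 16 class sums of both libraries, by Pearson's r of log2 of CPM plus 1, are given as a description, since these points share library, depth and clustering. For Aldh1a1 they were Gstm1 (0.993), Gstm2 (0.987) and Acsbg1 (0.985), for Aldh1a2 Nt5dc1 (0.964), Slc4a8 (0.959) and Ndufs6 (0.958), and for Crabp1 Mageb4 (0.961), Sohlh1 (0.936) and Tex19.1 (0.932). Those of Stra8 were Rhox13 (0.978), Jag2 (0.973) and Elavl2 (0.967), those of Rara Mtmr1 (0.956), Cyfip1 (0.955) and Leprot (0.946), and those of Rarg Zfp36l2 (0.943), Ski (0.940) and Fut11 (0.922). Cyp26b1 was most like Id1 (0.924), Tpm2 (0.860) and Tagln (0.854). Sohlh1 was one of the spermatogonial markers and Tagln one of the peritubular myoid markers used to name cells.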

How the data were processed

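Testis cells were digested in consecutive enzyme steps, strained and loaded on a droplet chip, per the labels' protocols. The authors deposited, for each library, a matrix of unnormalized UMI counts, whole numbers throughout. The submitters' processing notes name Cell Ranger 2.2.0, STAR and build mm10, and a software version of 3.1.0 stands in the matrices, per the file headers. The sources used here do not say how barcodes were called as cells.

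Barcodes with at least 500 UMIs, 250 genes and at most 20% mitochondrial UMIs were kept, 17703 in KO and 17002 in Wild type. Both libraries were clustered together (scanpy 1.11.5, leidenalg 0.10.2, igraph 0.11.9) on 2000 variable genes without the 9 members, 30 components, 15 neighbours and resolution 1. Clusters of at least 100 barcodes in which markers of several classes rose over free RNA were split again. Clusters were named from marker lists by limits set after seeing the data, and those called mixed or resembling empty droplets stayed unnamed. No barcode was removed as a doublet. UMIs were summed per class and library, and exact Poisson, conditional binomial and Clopper-Pearson intervals at 95% were computed (scipy 1.17.1). A class sum of 0 was set to a floor of 3 counts. Alternative scalings came from edgeR 4.0.16 (TMM) and DESeq2 1.42.0 (median of ratios), with no test from either. The ratio step was tested on simulated data.

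The named genes were the 9 members, all genes of the 6 pathway lists and, for each member with at least 50 UMIs over named cells, the 3 genes with the most similar levels. One gene of these lists is counted but not reported here. Members and lists were chosen with earlier results of these data known. Promoter windows came from RefSeq (GRCm38.p6) and gene positions from GENCODE on GRCm38.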

Additional observations from a re-analysis of the deposited data

Results flagged for a closer look

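The values below come from barcodes that enter no comparison, those of the clusters called mixed, where the level lay above that of free RNA in the same library. Aldh1a1 stood there at 169 CPM in KO, from 7891 UMIs, against 51.8 CPM in KO free RNA. Cyp26b1 stood at 10.1 CPM in KO, from 471 UMIs in 400 of 5284 barcodes, against 3.05 CPM in KO free RNA. Crabp1 stood at 9.48 CPM in KO, against 2.18 CPM in KO free RNA. Aldh1a2 stood at 50.7 CPM in the 294 mixed barcodes of Wild type, against 35.3 CPM in Wild type free RNA. Of these barcodes, 263 lay in the cluster closest to elongating spermatids. Most of the mixed sub-clusters, which were nearly all KO barcodes, were closest to Leydig cells. Sub-cluster 2.5, with 342 KO barcodes, was closest to interstitial mesenchymal cells, and Cyp26b1 and Dcn were its first leading genes. Which cells the mixed barcodes came from was not tested.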

How the results depend on the processing

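No paired analysis was possible because each genotype has 1 library. Of 223 recomputed ratios of the members, 199 stayed within the interval of the main value, 24 left it and 0 called ratios changed sign. The settings differed: thinning to 1000 UMIs moved 12 of 20 ratios out of the interval, while either other scaling moved 0 of 22. Of 44 recomputed levels 20 moved, and of 35 shares of cells 34 moved after thinning. In elongating spermatids the Aldh1a1 ratio was 4.90 with cells named one by one from markers. In Sertoli cells the log2 ratio of Crabp1 over the Wild type floor, 1.92 in the main setting, was 1.45 with a stricter barcode filter, 1.45 with free RNA subtracted, 0.27 after thinning to 1000 UMIs and 1.30 with the members kept in the clustering. Rara in Sertoli cells moved to -1.95 after thinning. The number of members past the limit in spermatogonia, 1, became 0 with the stricter filter, thinning, a minimum of 50 UMIs, cells named from markers and, an alternative chosen after seeing the data, without the sub-cluster of unequal depth. In late spermatocytes it became 2 with free RNA subtracted, without a minimum of UMIs and with the members kept in the clustering. In round spermatids it became 0 after thinning and 2 without a minimum. In elongating spermatids it became 2 under TMM, median of ratios, free RNA subtraction and no minimum, 3 with mixed clusters named and 5 with cells named from markers. In Sertoli cells it fell to 1 with the stricter filter, thinning, a minimum of 50 UMIs and the members kept in the clustering, against 2. Calls among the 44 further pathway genes ranged from 1 to 7 in spermatogonia and in late spermatocytes, 0 to 4 in round spermatids, 4 to 16 in elongating spermatids and 1 to 6 in Sertoli cells. The class with the highest level was kept in 37 of 44 checks.

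Each genotype is 1 library, so no value separates genotype from animal, digestion or run. Genes under 20 UMIs in a class give no ratio, which leaves Crabp2 and Cyp26b1 without any. Early spermatocytes and Leydig cells had fewer than 50 cells in 1 library. Class names rest on markers, and the libraries differ in the share of barcodes left unnamed.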
